A study of Homo sapiens with 24 samples.

Results

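The human 7SL RNA genes RN7SL1, RN7SL2 and RN7SL3 and the BC200 gene BCYRN1 are described here in a series on RNA polymerase III. Members were the features of the small RNA table that were not classed as lncRNA and whose first name was RN7SL followed by digits only, or BCYRN1. This rule found 4 of 175946 features, of which 20723 were not lncRNA. All 4 also had a window in the ATAC table and a RefSeq gene of the same symbol. The cells were HEK293, an established human embryonic kidney line labelled wild type, in which eGFP (GFP, the control), LMNA, LMNB1 or LMNB2 was overexpressed, with 3 replicates per group in each assay. LMNA encodes lamins A and C, and LMNB1 and LMNB2 encode the B-type lamins, proteins of the nuclear lamina. Small RNA libraries were made from RNA enriched for small RNAs, and ATAC libraries, which count transposase insertions into open chromatin, from separately collected cells of the same conditions. The vector, the time of overexpression and whether replicates were separate cultures are not given in the labels, so p-values measure the spread between these libraries, which may be technical.

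7SL RNA is the RNA scaffold of the signal recognition particle, which binds signal peptides as they leave the ribosome and brings the ribosome to the endoplasmic reticulum. It is transcribed by RNA polymerase III from a few active genes, while the genome carries many truncated copies and Alu elements derived from it. BC200 is a primate cytoplasmic RNA with an Alu-like 5′ domain, also made by RNA polymerase III, that is best known from neurons and has been linked to control of translation. Lamins line the inside of the nuclear envelope and contact chromatin there.

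RN7SL1 lies on the plus strand at chr14:49586555-49586904 (GRCh38), within the RefSeq span of RPS29. RN7SL3 lies on the minus strand at chr14:49853593-49853959, where RefSeq has no other gene. RN7SL2, also on the minus strand, lies 8568 bp further along at chr14:49862528-49862889, within the lncRNA gene LOC105378179. RN7SL1 is separated from RN7SL3 by 266688 bp. BCYRN1 lies on the plus strand at chr2:47335290-47335539, within the lncRNA gene EPCAM-DT. The RefSeq genes are 299 bases long for each 7SL gene and 200 for BCYRN1, so the counted intervals of 350, 362, 367 and 250 bp (RN7SL1, RN7SL2, RN7SL3 and BCYRN1) also hold some neighbouring sequence.

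Library totals ran from 132507051 to 195074742 counts in small RNA and from 156043245 to 290158229 over the ATAC windows. The overexpressed genes were visible in the tables: in small RNA 8 of 8 tested features over LMNB2 and 3 of 5 over LMNB1 were called higher in their own group, but 0 of 1 over LMNA, whose log2 fold change was -0.10. In ATAC, 1 of 6, 3 of 6 and 2 of 8 windows over LMNA, LMNB1 and LMNB2 were called higher, the largest log2 fold change over LMNA being 8.65. The mitochondrial share of ATAC window counts was 39.4% to 47.5% in GFP and LMNA libraries and 24.5% to 34.1% in LMNB1 and LMNB2 libraries. The small RNA scaling factors (TMM, edgeR's factor for composition) were 0.631, 0.905 and 1.31 in the GFP libraries and 0.878 to 1.16 in the 9 lamin libraries, so the GFP libraries differed most among themselves.

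Per kilobase of counted interval, small RNA reads were most abundant at RN7SL1, at 49.9 CPM (counts per 1000000 counts of the TMM-scaled library total) per kb over the 12 libraries, followed by RN7SL2 at 39.4, RN7SL3 at 25.2 and BCYRN1 at 0.482. This order held in 12 of 12 libraries. RN7SL1 exceeded RN7SL2 by 1.09- to 1.45-fold and RN7SL3 by 1.73- to 2.38-fold within a library, and BCYRN1 by 42.4- to 178-fold. The median of the 3329 tested features that are not lncRNA was 1.57 CPM per kb, so the 7SL genes stood above it and BCYRN1 below. Most other single-gene RNA polymerase III RNAs were higher than the 7SL genes. RPPH1, RMRP and RN7SK had 70.7, 119 and 331 CPM per kb, and the Y RNA genes 1116 to 6715. VTRNA1-3 had 18.9, the other vault RNA genes 348 to 6402, and RNU6ATAC 0.552. These are read levels in libraries enriched for small RNAs and not amounts of RNA in the cell. Among all 33893 tested features the median was 0.00548 CPM per kb, and BCYRN1 was at or above 89.6% of them. BCYRN1 rested on 10 to 28 reads per library, against 910 to 3797 for the 7SL genes.

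The 3 7SL genes share most of their sequence, and how reads that fit several places were assigned is not given in the sources used here. The 16 features named RNA5S8, copies of the 5S rRNA gene in the same table, had mean counts between 62150 and 62431. Within a library they differed by about counting noise (variance over mean 0.754 to 1.62), and the cause was not tested. The 7SL genes did not have such equal values: their levels kept the same order in 12 of 12 libraries. How many reads were shared among the 3 genes was not tested, so a count at one of them is uncertain as a measure of that gene alone. Strand did not separate reads either: the lncRNA interval lnc-RPL36AL-3 on the opposite strand held the reads of RN7SL1, which made up 96.7% to 98.1% of its count. BCYRN1 made up 68.2% to 94.4% of the shorter lnc-EPCAM-8 interval over it, which is on the same strand and so does not bear on strand.

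RN7SL1 stood at 15.4, 12.2 and 14.0 CPM in the 3 GFP libraries and at 21.4, 21.3 and 20.6 CPM with LMNB2. With LMNA it was at 23.6, 18.2 and 16.5 CPM, and with LMNB1 at 15.2, 17.3 and 13.8 CPM. All LMNB2 libraries and all LMNA libraries lay above all GFP libraries, while LMNB1 and GFP overlapped. Of all tested features, 12.1% were separated in this way with LMNB2 and 4.16% with LMNA. Group means were 13.9 ± 1.61 (GFP), 19.4 ± 3.72 (LMNA), 15.4 ± 1.76 (LMNB1) and 21.1 ± 0.406 CPM (LMNB2; SD, n = 3 each).

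RN7SL2 was at 10.98, 10.01 and 13.32 CPM with GFP and at 17.7, 17.1 and 17.1 CPM with LMNB2. The LMNA libraries gave 18.1, 15.0 and 13.1 CPM and the LMNB1 libraries 12.5, 13.4 and 12.8 CPM. Only the LMNB2 libraries lay wholly above GFP for this gene, as they did for 12.1% of all tested features. Means were 11.4 ± 1.70, 15.4 ± 2.53, 12.9 ± 0.450 and 17.3 ± 0.311 CPM in the order GFP, LMNA, LMNB1 and LMNB2 (SD, n = 3 each).

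RN7SL3, the least abundant of the 3, was at 7.82, 6.72 and 8.49 CPM with GFP and at 11.05, 12.39 and 12.04 CPM with LMNB2. LMNA libraries gave 10.4, 8.90 and 7.97 CPM and LMNB1 libraries 8.03, 9.15 and 8.07 CPM. Here the LMNB2 libraries were above every library of the other 3 groups. Taken pair by pair, such a separation was seen for 12.1% (GFP), 14.6% (LMNA) and 15.6% (LMNB1) of all tested features. The share separated from all 3 groups together was not counted. Means were 7.68 ± 0.897, 9.09 ± 1.23, 8.42 ± 0.632 and 11.8 ± 0.697 CPM in the same order (SD, n = 3 each).

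BCYRN1 counts were 14, 28 and 10 reads with GFP, 22, 17 and 21 with LMNA, 15, 19 and 21 with LMNB1, and 26, 15 and 15 with LMNB2. The GFP libraries held both the highest and the lowest level, and all groups overlapped. Means were 0.127 ± 0.0750, 0.126 ± 0.0101, 0.110 ± 0.0167 and 0.120 ± 0.0325 CPM (GFP, LMNA, LMNB1, LMNB2; SD, n = 3 each).

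**Figure D1:**
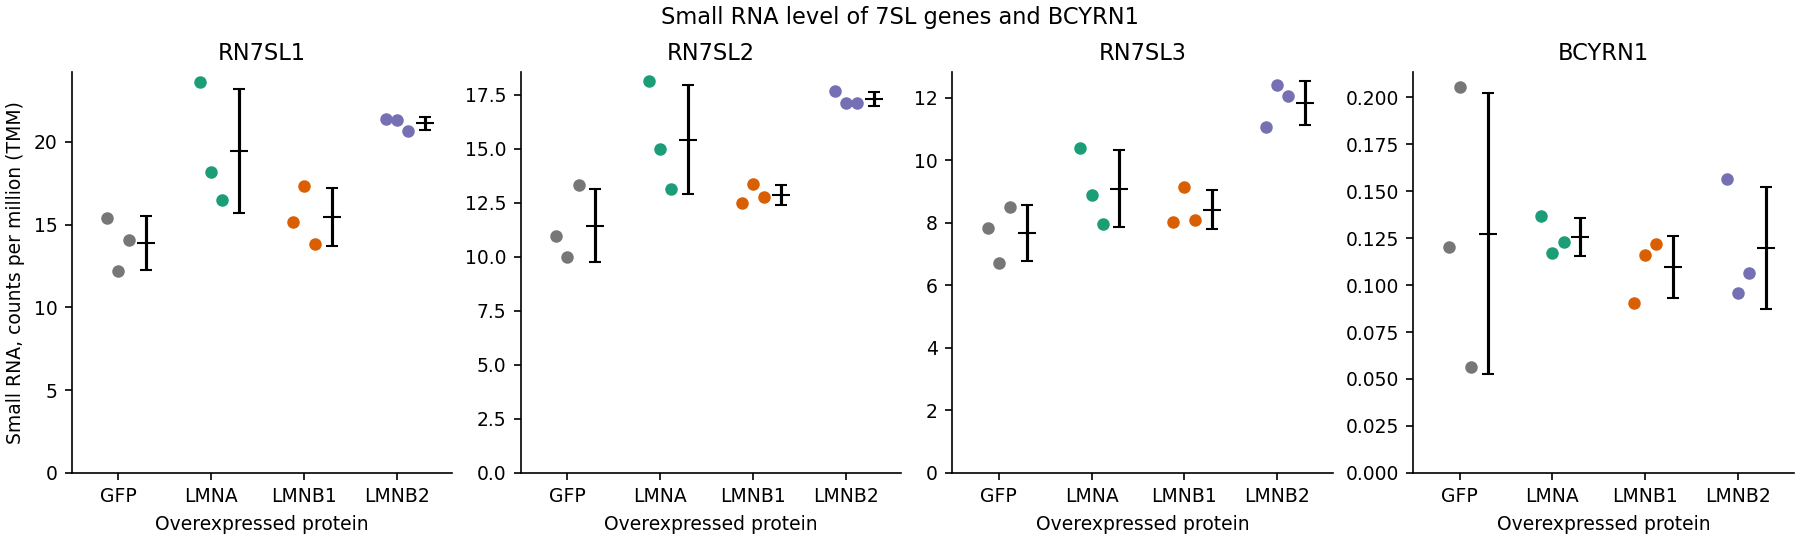
Small RNA level in CPM after TMM scaling (y axis, from 0) of RN7SL1, RN7SL2, RN7SL3 and BCYRN1 in each of the 12 libraries by overexpressed protein (points), with mean and SD of 3 libraries (black). The LMNB2 points of the 3 7SL genes lie above all GFP points, as for 12.1% of all tested features, and those of BCYRN1 overlap with GFP.

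The main question was whether these genes differ between a lamin and GFP. With LMNB2 the 3 7SL genes were each about 1.5 times the GFP mean (1.52-, 1.51- and 1.54-fold for RN7SL1, RN7SL2 and RN7SL3), with log2 fold changes of 0.60 ± 0.21, 0.60 ± 0.20 and 0.62 ± 0.19 (± SE). By edgeR's quasi-likelihood test, adjusted over the 33893 tested features, 0 of 4 members were called (adjusted p = 0.121, 0.113 and 0.0882, unadjusted p = 0.00914, 0.00779 and 0.00456 in that order), where 2.66% of all tested features were called and 19.9% had an unadjusted p under 0.05. LMNB2 libraries lay wholly above GFP libraries for 3 of 4 members, and for 12.1% of all tested features. These 3 members are the 7SL genes, which may share reads, so they do not count as 3 separate observations. BCYRN1 had a log2 fold change of -0.03 with a 95% interval from -0.79 to 0.73 (edgeR adjusted p = 0.972), wide enough to hold the values of the 7SL genes.

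Whether the 7SL genes passed the threshold in LMNB2 depended on the method. DESeq2's Wald test called RN7SL1, RN7SL2 and RN7SL3 (adjusted p = 0.0389, 0.0321 and 0.0150, background 2.81%). Without GFP replicate 3 edgeR called all 3 (adjusted p = 0.0437, 0.0123 and 0.0137, background 5.82%), and with lncRNA features left out of the fit it called RN7SL2 and RN7SL3 (adjusted p = 0.0287 and 0.0261, background 3.83%). None of the 3 was called against GFP in the other alternatives, which included total-count scaling, other filters and each other library left out. A fit of the LMNB2 and GFP libraries alone also called none of them, with 0.0742% of features called. Scaling by total counts alone gave log2 fold changes of 0.84, 0.78 and 0.83, while the median of all tested features moved from -0.04 to 0.21, which left the 3 genes 0.63, 0.57 and 0.62 above that median, against 0.65, 0.64 and 0.67 with TMM. Under total-count scaling as well, LMNB2 libraries lay wholly above GFP libraries for each 7SL gene, but the share of all features was not counted there.

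With LMNA, RN7SL1 had a log2 fold change against GFP of 0.48 ± 0.21 and RN7SL2 of 0.43 ± 0.20 (SE; edgeR adjusted p = 0.895 for both), and RN7SL3 of 0.24 ± 0.19 (adjusted p = 0.921). No member was called, nor was any other feature (0.0% of those tested), although 5.46% had an unadjusted p under 0.05, among them RN7SL1 and RN7SL2 (0.0303 and 0.0443). The separation of RN7SL1 in LMNA from GFP, seen for 4.16% of all tested features, was not found under total-count scaling. With LMNB1 the 3 7SL genes had log2 fold changes of 0.15, 0.17 and 0.13 (edgeR adjusted p from 0.909 to 0.930, 95% intervals from -0.28 to 0.59 at the widest), and 0 members against 0.0384% of all features were called. BCYRN1 had values of 0.03 and -0.17 with LMNA and LMNB1, with intervals from -0.72 to 0.77 and from -0.93 to 0.59.

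Between lamins, the 7SL genes were higher with LMNB2 than with LMNB1 by 0.45 ± 0.21, 0.43 ± 0.20 and 0.49 ± 0.19 on the log2 scale for RN7SL1, RN7SL2 and RN7SL3 (SE). These differences were not called by edgeR (adjusted p = 0.289, 0.296 and 0.208, 0 of 4 members against 2.19% of features). LMNB2 libraries lay wholly above LMNB1 libraries for the 3 genes and for 15.6% of all features. A fit of these 6 libraries alone, in which 15.5% of features were called, called all 3 (edgeR adjusted p = 0.00201, 0.00204 and 0.000810). LMNB2 against LMNA gave 0.12, 0.17 and 0.38 (edgeR adjusted p = 0.806, 0.699 and 0.335, background 2.01%), and only RN7SL3 was without overlap there, as were 14.6% of features. LMNB1 against LMNA gave -0.33, -0.26 and -0.11 (edgeR adjusted p from 0.863 to 0.970, background 0.0118%). The joint test over the 4 groups gave edgeR adjusted p-values of 0.264, 0.276, 0.237 and 0.973 for RN7SL1, RN7SL2, RN7SL3 and BCYRN1, against 1.68% of features called. Without GFP replicate 3, where 9.02% of features were called, it called RN7SL2 (0.0240) and RN7SL3 (0.0275).

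**Figure D2:**
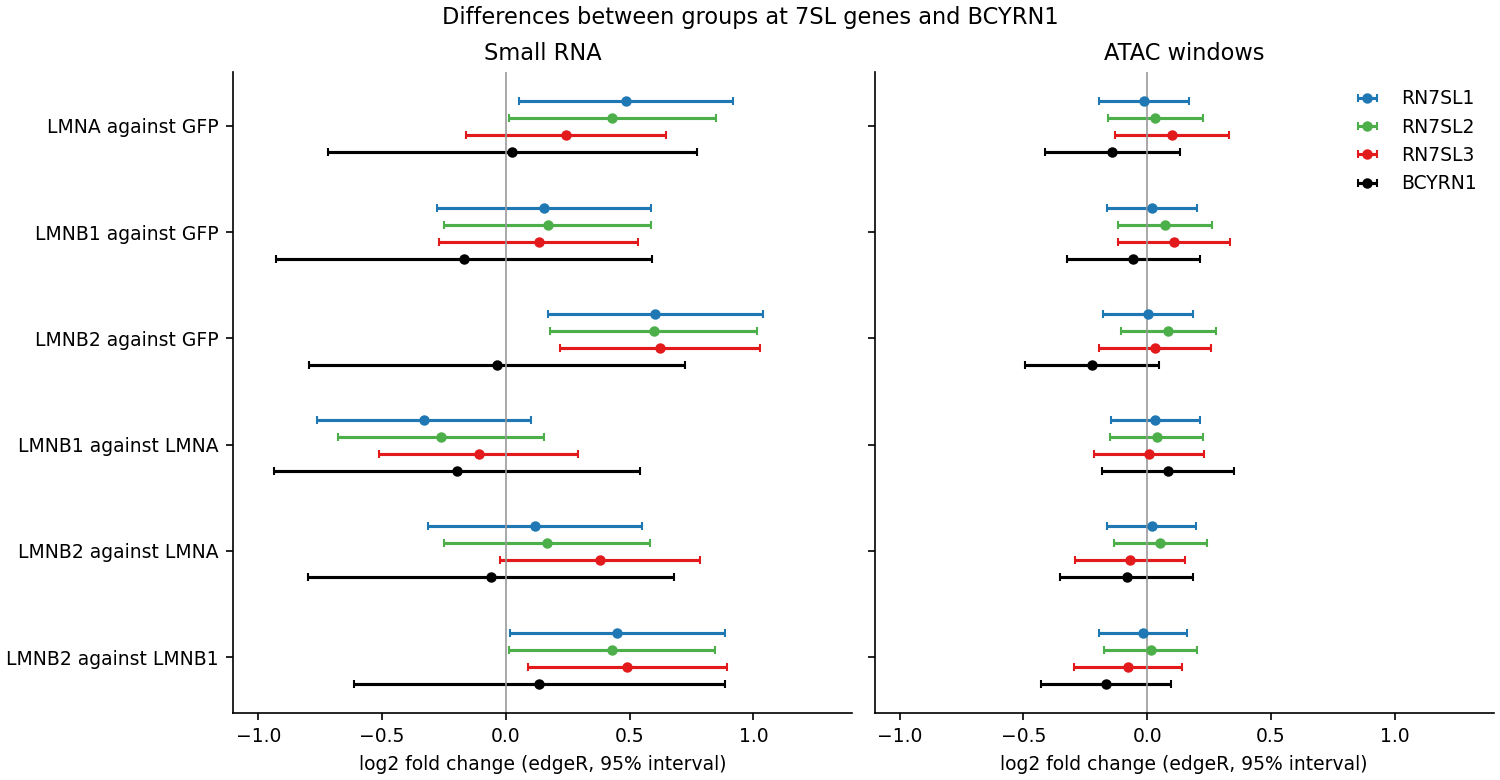
Log2 fold change with 95% interval from edgeR (x axis) for 6 comparisons between groups (y axis) at the 4 genes, in small RNA (left) and at the ATAC windows (right). In small RNA the LMNB2 against GFP points of the 3 7SL genes sit at 0.60 to 0.62 with BCYRN1 at -0.03, and in ATAC all points lie between -0.22 and 0.11.

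Taken as a sum, the 3 7SL genes made up 33.0 ± 3.62 CPM with GFP, 43.9 ± 7.46 with LMNA, 36.7 ± 2.74 with LMNB1 and 50.2 ± 0.527 with LMNB2 (SD, n = 3 each), a description chosen after the values were seen. The GFP libraries reached at most 35.9 CPM and the LMNB2 libraries at least 49.8 CPM, while LMNA libraries ran from 37.6 to 52.1 CPM. Scaled by total counts alone, the GFP sum was 31.5 ± 13.5 CPM with libraries from 21.6 to 46.9, and the LMNB2 sum 55.6 ± 2.65 CPM with libraries from 52.9 to 58.2. The LMNA sum was then 41.9 ± 9.98 CPM with libraries from 32.9 to 52.7, so LMNA and GFP overlapped. The 3 genes may share reads, so their sum is not evidence apart from the single genes.

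Ratios of counts within a library are free of scaling. The log2 ratio of RN7SL1 to RN7SL2 was 0.28 ± 0.21 with GFP, 0.33 ± 0.05 with LMNA, 0.26 ± 0.13 with LMNB1 and 0.29 ± 0.03 with LMNB2 (SD, n = 3; exact permutation test over the 12 libraries, p = 0.913). BCYRN1 against the mean of the 7SL genes was at -6.62 ± 1.09, -6.85 ± 0.16, -6.81 ± 0.24 and -7.16 ± 0.38 (exact permutation p = 0.757). Without GFP replicate 3 the exact permutation p of this ratio was 0.0221 (0.0520 adjusted), with GFP at -6.06 ± 0.72. Without any other single library it was 0.628 to 0.884. The ratios of RN7SL3 to the other 2 genes were added after the values were seen. RN7SL3 to RN7SL1 was -1.18, -1.03 and -1.05 in the LMNA libraries and -0.98 to -0.73 in the other 9, and RN7SL3 to RN7SL2 was -0.80, -0.75 and -0.72 against -0.68 to -0.47. So LMNA libraries had the lowest share of RN7SL3 in both ratios without overlap. The exact permutation p over the 4 groups was 0.0528 and 0.0520, or 0.106 for both after Benjamini-Hochberg adjustment over the 4 ratios, and each pair of groups can reach no less than 0.10. Over the 12 fits that leave out a single library, the exact permutation p ran from 0.0260 to 0.201 for RN7SL3 to RN7SL1 and from 0.00929 to 0.165 for RN7SL3 to RN7SL2. The highest values came without LMNA replicate 1 (0.402 adjusted for both), and the lowest of RN7SL3 to RN7SL2 without LMNB2 replicate 1 (0.0371 adjusted).

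**Figure D3:**
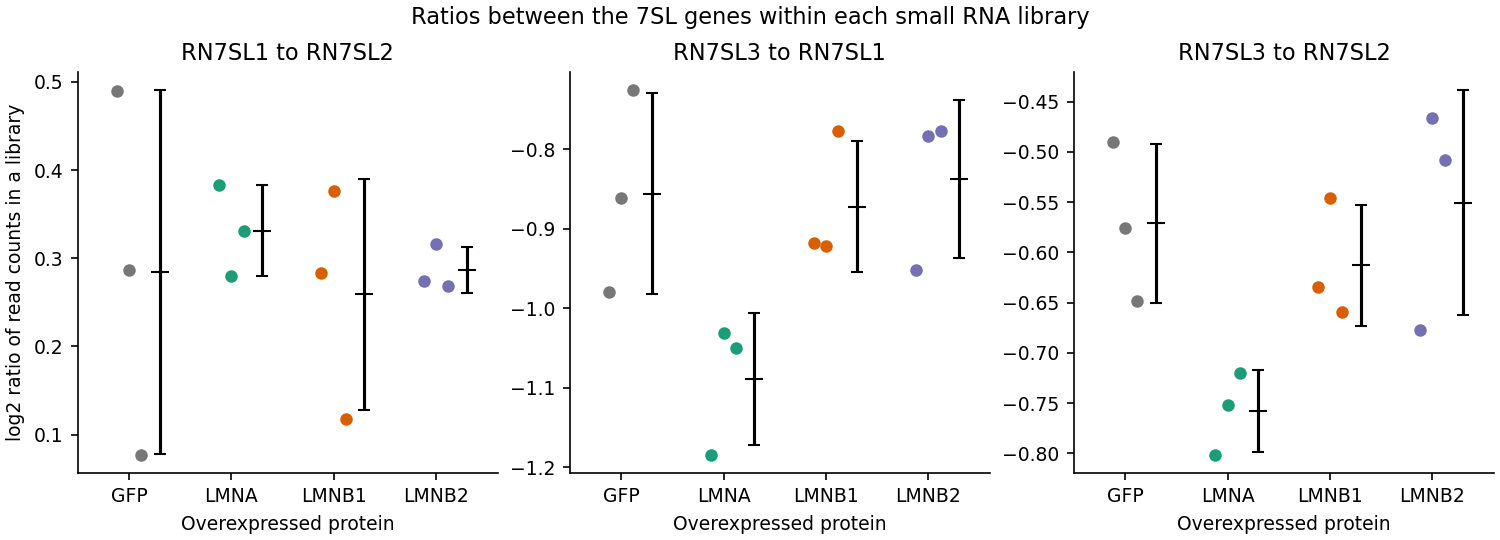
Log2 ratio of read counts between pairs of 7SL genes in each small RNA library (y axis, not starting at 0) by overexpressed protein, with mean and SD of 3 libraries (black). The LMNA points of the 2 ratios that involve RN7SL3 lie below all other points, and the groups overlap in the ratio of RN7SL1 to RN7SL2.

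Across the 12 small RNA libraries, log2 CPM of the 7SL genes correlated with each other (Pearson r = 0.93 for RN7SL1 and RN7SL2, 0.89 for RN7SL1 and RN7SL3, 0.92 for RN7SL2 and RN7SL3) and not with BCYRN1 (0.02, -0.14 and -0.18). These points share library scaling and, between 7SL genes, possibly reads, and the BCYRN1 values are sparse. Among 2670 features of at least median level that are not lncRNA, those with the highest r to RN7SL1 were SNORA55 (0.95), a U1 snRNA copy (0.94) and SCARNA22 (0.94). For RN7SL2 they were SNORD83B (0.94), a 5S rRNA copy (0.93) and a feature with no gene symbol (0.93), and for RN7SL3 SNORD3D (0.96), SCARNA12 (0.96) and a U3 snoRNA copy (0.95). SNORA and SNORD genes encode small nucleolar RNAs, which guide RNA modification or, for U3, pre-rRNA processing, and SCARNA genes encode RNAs of Cajal bodies. The features nearest to BCYRN1 were 3 SRP-annotated intervals of 226087 to 311550 bp (0.77 to 0.79).

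Other RNA polymerase III RNAs encoded by single genes were set beside the members. Of the 4 vault RNA genes, whose RNAs are part of the vault particle or, for VTRNA2-1, regulate the kinase PKR, 0 of 4 were higher with LMNB2 than with GFP and none was called, with a median log2 fold change of -0.31. VTRNA2-1 had the largest difference, from 736 ± 151 to 380 ± 42.5 CPM (SD, n = 3; log2 fold change -0.95, edgeR adjusted p = 0.0745). Of RN7SK, RMRP, RPPH1, RNY1, RNY3, RNY4, RNY5 and RNU6ATAC, 7 of 8 had a value above 0 and 0 were called, with a median of 0.16, against a median of -0.04 over all tested features. Of these, 2 of 8 had an edgeR unadjusted p under 0.05, against 19.9% of all tested features. Both encode Y RNAs, which are part of Ro ribonucleoproteins. The other Y RNA genes of the list, RNY3 and RNY4, had log2 fold changes of 0.05 and 0.28 (edgeR unadjusted p = 0.847 and 0.251). RNY1 had 321 ± 91.7 CPM with GFP and 469.8 ± 56.5 CPM with LMNB2 (SD, n = 3; log2 fold change 0.55, edgeR unadjusted p = 0.0398, adjusted p = 0.228). RNY5 had 475 ± 132 and 691 ± 89.3 CPM (SD, n = 3; log2 fold change 0.54, edgeR unadjusted p = 0.0471, adjusted p = 0.244). With LMNA and LMNB1, 0 of these 12 genes were called. Of 982 tested dispersed copies annotated as SRP RNA, out of 8694 in the table, 0, 1 and 19 were called with LMNA, LMNB1 and LMNB2 against GFP, 15 of the 19 higher and 4 lower, with a median of -0.02 for LMNB2. Over all tested features, 0.0%, 0.0384% and 2.66% were called, for LMNB2 901 of 33893, 646 higher and 255 lower.

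In ATAC, all 4 windows lay above most of the table and differed little between groups. Such levels were not particular to them. The vault RNA genes had 11.7 to 14.9 CPM per kb, and RN7SK, RMRP and RPPH1 had 14.8, 14.9 and 17.6. RNU6ATAC had 7.75 and the Y RNA genes 0.908 to 2.43. RN7SL2 had 12.3 CPM per kb, RN7SL1 10.1, RN7SL3 4.09 and BCYRN1 2.39, against a median of 0.103 over the 163786 tested windows, and each was above 96.3% or more of them. Among the 12320 tested windows of features that are not lncRNA, the median was 0.120. There BCYRN1 was at or above 93.3%, RN7SL3 94.5%, RN7SL1 97.0% and RN7SL2 97.7%. The order was the same in 12 of 12 libraries and differed from that of the small RNA levels, where RN7SL1 was first. The windows extend beyond the counted small RNA intervals on either side, to 600 bp at RN7SL1, 612 bp at RN7SL2, 617 bp at RN7SL3 and 500 bp at BCYRN1, so they also hold sequence outside the genes.

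RN7SL1 windows held 969 to 1806 counts per library, with 6.86, 5.68 and 5.55 CPM with GFP, 6.13, 6.44 and 5.37 CPM with LMNA, 6.44, 6.08 and 5.80 CPM with LMNB1 and 6.32, 5.36 and 6.46 CPM with LMNB2. All groups overlapped. Means for RN7SL2 were 7.28 ± 0.884, 7.43 ± 0.266, 7.63 ± 0.770 and 7.72 ± 1.13 CPM, and for RN7SL3 2.42 ± 0.363, 2.59 ± 0.0513, 2.61 ± 0.281 and 2.47 ± 0.333 CPM, in the order GFP, LMNA, LMNB1 and LMNB2 (SD, n = 3 each). For these genes too no group was separate from another.

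BCYRN1 windows gave 1.58, 1.16 and 1.11 CPM with GFP, 1.12, 1.20 and 1.16 CPM with LMNA, 1.24, 1.25 and 1.21 CPM with LMNB1 and 1.05, 1.26 and 0.976 CPM with LMNB2. The LMNB1 libraries lay just above the LMNA libraries, a separation seen for 5.52% of all windows, and with TMM scaling no other pair of groups was without overlap. Under total-count scaling the LMNB2 libraries also lay wholly below the LMNB1 libraries (0.840-fold), and the share of all windows was not counted there.

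**Figure D4:**
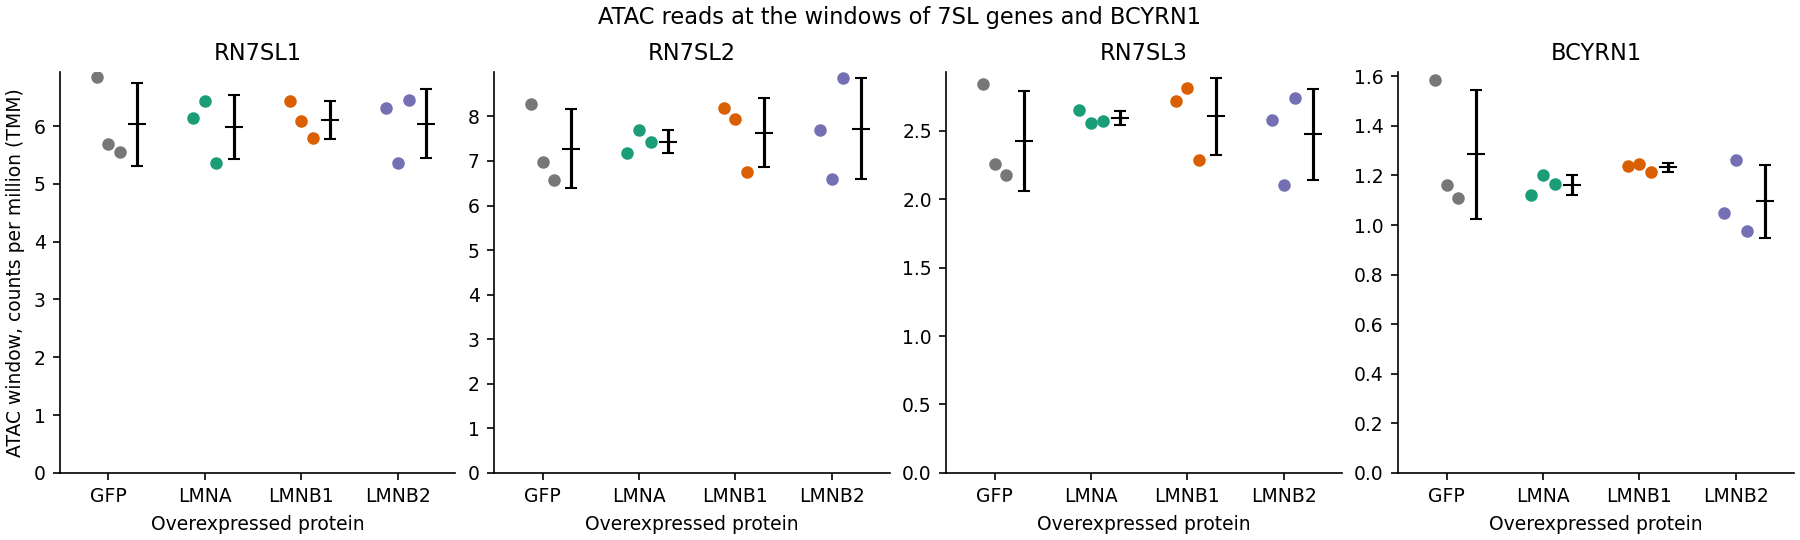
ATAC CPM after TMM scaling (y axis, from 0) in the window of each gene by library (points) and overexpressed protein, with mean and SD of 3 libraries (black). Points of all groups overlap at the 3 7SL genes, and the RN7SL1 means lie between 5.98 and 6.11.

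No member window was called in any comparison by edgeR (0 of 4 against 0.000611%, 0.00305% and 0.00244% of windows for LMNA, LMNB1 and LMNB2 against GFP, 0.223%, 0.00305% and 0.00305% for LMNB1 against LMNA, LMNB2 against LMNA and LMNB2 against LMNB1, and 0.0421% in the joint test). With LMNB2, where the 7SL RNA levels differed most from GFP, the ATAC log2 fold changes were 0.00 for RN7SL1 (95% interval -0.18 to 0.19), 0.09 for RN7SL2 (-0.10 to 0.28) and 0.03 for RN7SL3 (-0.20 to 0.26). The small RNA estimates of 0.60 to 0.62 lie outside these intervals for all 3 genes. Those estimates have an uncertainty of their own, which this comparison leaves out, and the assays measure different things. The assays used different cells and libraries, and the difference between them was not tested. BCYRN1 had the largest ATAC value, -0.22 with LMNB2 (-0.49 to 0.05, edgeR adjusted p = 0.907). Leaving out the mitochondrial features, whose share differed between groups, called 0 members.

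The flanks of each window start 350 bp outside it. In the nearest 500 bp, ATAC reads were one-sided at the 7SL genes in 12 of 12 libraries. RN7SL1 had more reads upstream (1716 in all 12 libraries against 152 downstream, 11.3-fold), RN7SL2 more downstream (3702 against 914, 4.05-fold), and RN7SL3 more downstream (4597 against 88, 52.2-fold). The downstream flank of RN7SL3 (chr14:49852618-49853117) holds the RefSeq start of NEMF, a protein-coding gene of ribosome quality control, and at 3.31 CPM per kb it came close to the 4.09 of the window. BCYRN1 had similar numbers on both sides (411 upstream, 316 downstream, more upstream in 9 of 12 libraries). Over 5000 bp the RN7SL1 flanks had 0.287 CPM per kb upstream and 0.0596 downstream, and those of BCYRN1 0.114 and 0.143. Those of RN7SL3 had 0.0540 upstream and 0.541 downstream. At RN7SL2 the side reversed, with 0.976 upstream and 0.328 downstream.

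**Figure D5:**
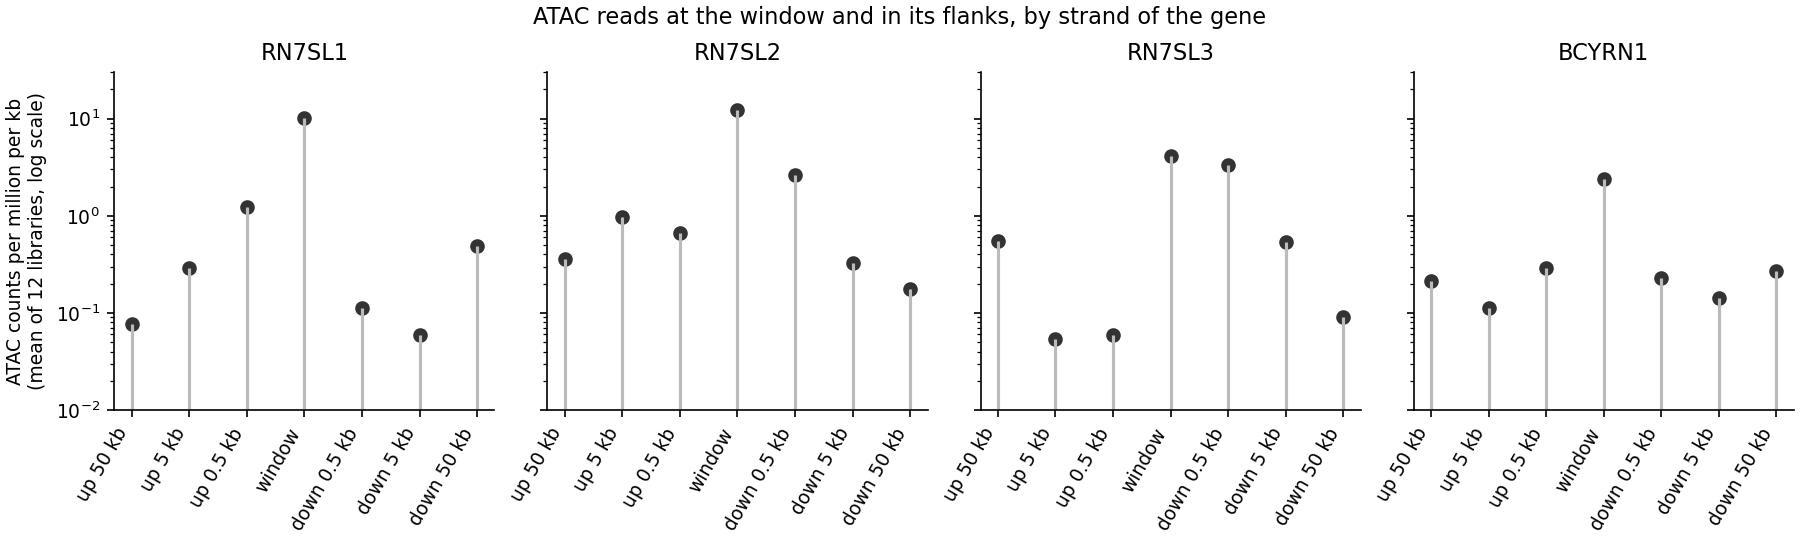
ATAC CPM per kb, mean of 12 libraries (y axis, log scale), in the window and in flanks of 0.5, 5 and 50 kb upstream and downstream by the strand of the gene (x axis); larger flanks include smaller ones. The window has the highest value at each gene, and the 0.5 kb downstream flank of RN7SL3 comes closest to its window, at 3.31 against 4.09.

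None of the 8 flanks of 5000 bp was called by edgeR in the joint test (0.052% of all such flanks) or with LMNA (0.000571%), LMNB1 (0.00856%) or LMNB2 (0.0494%) against GFP. The joint test called none of the 8 flanks of 500 bp (0.0648%) or of 50000 bp (0.114%) either. The upstream 5000 bp of RN7SL1 had the smallest p: its log2 fold change was -0.36 ± 0.12 with LMNA and -0.31 ± 0.12 with LMNB2 (SE; edgeR unadjusted p = 0.00284 and 0.00978, adjusted p = 0.695 and 0.713). The window density over that of both 5000 bp flanks, again free of scaling, was on the log2 scale 5.68 to 5.98 for RN7SL1, 4.09 to 4.38 for RN7SL2, 3.66 to 3.85 for RN7SL3 and 4.03 to 4.36 for BCYRN1 as group means. Exact permutation tests over the 4 groups gave p = 0.435, 0.0647, 0.503 and 0.0973. The RN7SL2 ratio was 4.17 ± 0.08 with GFP, 4.09 ± 0.06 with LMNA, 4.29 ± 0.01 with LMNB1 and 4.38 ± 0.20 with LMNB2 (SD, n = 3). Without LMNB2 replicate 2, its exact permutation p was 0.00039, without each of the other 11 libraries 0.0782 to 0.135, and with flanks of 500 or 50000 bp 0.316 or 0.211. Flanks of RN7SL2 and RN7SL3 overlap each other at 5000 bp and above. At 50000 bp a flank of each gene also holds the whole window of the other.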

How the data were processed

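Counts were deposited by the authors as a table per assay, whole numbers whose totals differ between libraries, for 12 small RNA and 12 ATAC libraries. Per the submitters' processing notes the build is GRCh38, and how reads were aligned and counted, whether strand was used, and what was done with duplicates and with reads that fit several places are not given in the sources used here. Any reads shared by similar genes or overlapping features therefore cannot be assigned to one of them, and intervals cover the spread between libraries and not molecules. Positions were copied from the tables and are 1-based, and RefSeq (GRCh38.p14) gave gene names and neighbours.

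Groups came from the sample titles. Each assay has a single batch label. An edgeR model (version 4.0.16 in R 4.3.3) with 4 group means was fitted to the 12 libraries of each assay. It used features kept by filterByExpr, TMM factors and robust quasi-likelihood tests, with Benjamini-Hochberg adjustment over all 33893 small RNA features or 163786 ATAC windows tested. Flanks were fitted per size in the same way. All 4 members passed the filter in both assays. A call is an adjusted p under 0.05. CPM uses TMM-scaled totals. Ratios within a library were compared by exact permutation over libraries, two-sided between 2 groups. The fits were tested on simulated counts.

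The members and lists were chosen with earlier results of these data known. Named features are the members, the vault and single-gene RNA polymerase III lists, features that overlap a member, and the 3 most correlated features per member. RN7SL3 meets the rule and was included. Alternatives were DESeq2 1.42.0 as test or for size factors, total-count scaling, other filters, only the groups compared, a replicate block, each library left out, no lncRNA or mitochondrial features, other flank sizes and an offset of 0.5 in the ratios.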

Additional observations from a re-analysis of the deposited data

How the results depend on the processing

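Main fits called no member in either assay. In small RNA, members called against GFP rose from 0 to 3 with DESeq2's test, to 2 without lncRNA features, and ranged from 0 to 3 when single libraries were left out, the 3 coming without GFP replicate 3. Fitting only the groups compared raised calls between lamins from 0 to 3, all in LMNB2 against LMNB1. With libraries left out in turn, the joint test called 0 to 2 members, ratios past the threshold ran from 0 to 1 between members (without LMNB2 replicate 1) and from 0 to 1 for window over flank (without LMNB2 replicate 2). The cause was not tested. LMNB2 against GFP stayed above 0 for the 3 7SL genes in all 20 alternatives, at 0.52 to 0.84, 0.51 to 0.78 and 0.53 to 0.83 for RN7SL1, RN7SL2 and RN7SL3. With the replicate number as a block, their edgeR adjusted p was 0.131, 0.137 and 0.117 and no member was called. Deviations of same-numbered libraries correlated at -0.04 to 0.23 in small RNA and -0.08 to 0.19 in ATAC. For GFP and LMNA in small RNA, same-numbered libraries gave 0.055 to 0.23 and the others -0.21 to 0.051. For LMNA and LMNB2 in small RNA, the ranges were 0.0235 to 0.054 and -0.051 to 0.0067. In all other pairs of groups these ranges overlapped. Whether the numbers pair libraries cannot be told from these values.

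Values that were not called changed sign in the following alternatives (log2 fold changes). For BCYRN1 in small RNA, leaving out single libraries gave -0.32 to 0.60 (LMNA), -0.53 to 0.40 (LMNB1) and -0.40 to 0.52 (LMNB2) against GFP, -0.33 to 0.066 for LMNB2 against LMNA and -0.12 to 0.27 for LMNB2 against LMNB1. Total-count scaling gave BCYRN1 0.048 and 0.26 for LMNB1 and LMNB2 against GFP and 0.17 for LMNB2 against LMNA. Omitting lncRNA features gave it -0.18 for LMNA against GFP and 0.13 for LMNB2 against LMNA. RN7SL3 in LMNB1 against LMNA was 0.031 with total-count scaling and 0.0060 without lncRNA features. In ATAC, total-count scaling gave 0.067 for RN7SL1 with LMNA and 0.13 for BCYRN1 with LMNB1 against GFP, and -0.060 for RN7SL2 in LMNB2 against LMNB1. Leaving out single ATAC libraries gave, against GFP, -0.071 to 0.088 (LMNA), -0.036 to 0.12 (LMNB1) and -0.052 to 0.11 (LMNB2) for RN7SL1. It gave -0.035 to 0.13 (LMNA) and -0.025 to 0.19 (LMNB2) for RN7SL2, -0.048 to 0.16 (LMNB2) for RN7SL3, and -0.24 to 0.034 (LMNA) and -0.15 to 0.12 (LMNB1) for BCYRN1. Between lamins, in the order LMNB1 against LMNA, LMNB2 against LMNA and LMNB2 against LMNB1, it gave -0.042 to 0.090, -0.057 to 0.098 and -0.061 to 0.065 for RN7SL1, -0.015 to 0.12, -0.054 to 0.16 and -0.092 to 0.12 for RN7SL2, and -0.051 to 0.094, -0.15 to 0.036 and -0.16 to 0.028 for RN7SL3. The depth of BCYRN1, at most 28 small RNA reads per library, limits its comparisons.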
